A study of Mus musculus with 2 samples.

Results

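The TCF7 peaks assigned to 9 genes of Notch signaling and T-cell identity were examined. The genes were the receptor gene Notch3, the coactivator genes Maml1 and Maml2, the ubiquitin ligase gene Fbxw7, the transcriptional regulator genes Bcl6 and Id2, the cytokine receptor gene Il2rg, the coreceptor gene Cd8a and the T-cell receptor beta diversity segment Trbd1. A peak belonged to a gene when the authors' table listed that gene as the nearest one, and each of the 9 genes had 1 peak, giving 9 of the 779 peaks. The genes were picked because they had a peak in these data, so that having a peak is a property of the choice and not a result. Chromatin immunoprecipitation with sequencing (ChIP-seq) had been performed on a laboratory-made mouse cell line of T-cell acute lymphoblastic leukemia (T-ALL) with the genotype Lck-Akt2;Dlx5 transgenic, in which the Lck promoter, active in immature T cells, drives the transgenes. Both libraries came from formaldehyde-fixed, sonicated chromatin of these cells grown in IMDM with serum. In 1 library, DNA was precipitated with a rabbit monoclonal antibody against TCF1/TCF7, and the other was sonicated input DNA with no antibody. The labels call the cells double positive, the thymocyte stage that carries both CD4 and CD8. With 1 library of each kind from a single line, no value has a replicate and no difference from other cells can be tested. Peaks measure where the antibody enriched DNA and not expression, so the labelled cell type could not be checked against marker RNA.

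TCF7, also named TCF1, is an HMG-box transcription factor of T cells that binds DNA on its own and recruits beta-catenin in Wnt signaling. Notch receptors are cleaved after contact with a ligand, and the released intracellular domain enters the nucleus, where it joins the DNA-binding protein RBPJ and a Mastermind-like coactivator, the product of Maml1, Maml2 or Maml3. FBXW7 marks the intracellular domain for degradation, and Notch signals and TCF7 are known to commit progenitors to the T-cell fate in the thymus.

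The 9 peaks were spread over the list, 5 of them above and 4 below the median fold enrichment. Fold enrichment is the ratio of ChIP to local background at the summit, the base of greatest overlap, as MACS2 computes it. In this ratio each ChIP fragment counts as 0.522, and 1 is added to both sides. The fragment counts given below, divided by the background, therefore do not give the fold enrichment. The fold enrichment ran from 6.50 at Id2 to 28.6 at Bcl6, with a median of 10.6, against 8.93 over all 779 peaks. A fold enrichment of at least 10 was reached by 5 of the 9 peaks (Bcl6, Trbd1, Notch3, Maml1 and Fbxw7) and by 45.1% of all peaks. By rank among the 779, Bcl6 held place 88, Trbd1 228, Notch3 229, Maml1 278, Fbxw7 329, Cd8a 420, Il2rg 441, Maml2 485 and Id2 542. All 9 had a −log10 q of at least 10, as did 85.2% of all peaks.

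**Figure D1:**
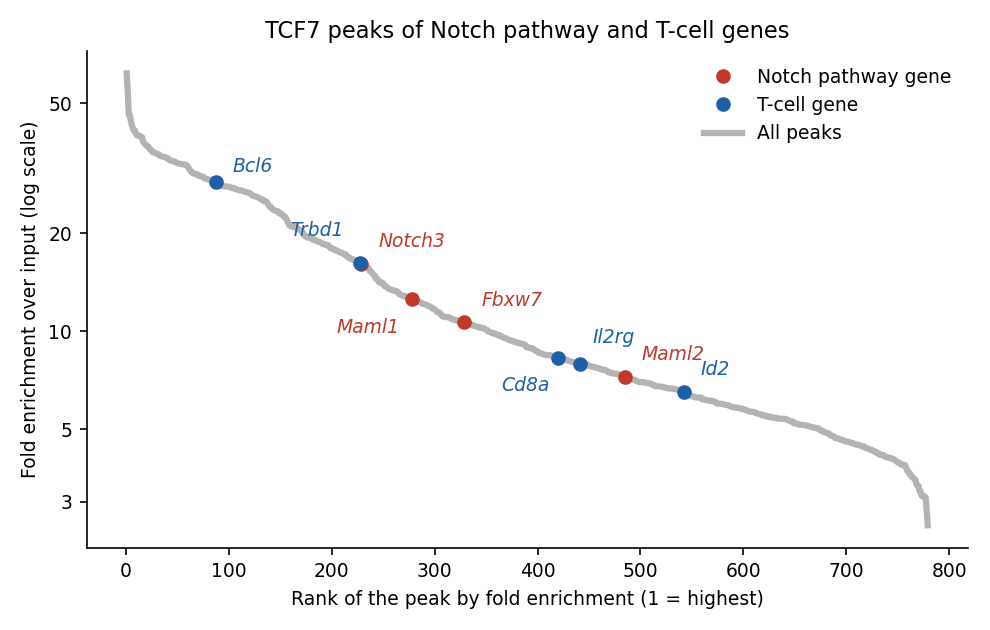
Fold enrichment of each peak (y axis, log scale) against its rank among all 779 peaks (x axis), as a gray line, with the 4 peaks of Notch pathway genes in red and the 5 peaks of T-cell genes in blue. Bcl6 lies highest at 28.6, Trbd1 (16.2) and Notch3 (16.1) lie almost on each other, and Id2 lies lowest at 6.50.

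The receptor gene Notch3 had its peak in the DNA upstream of its promoter. Notch3 encodes a Notch receptor that is expressed in developing thymocytes. The peak, chr17:32176773-32177150 (mm10), had its summit 10124 bp upstream of the transcription start site (TSS), outside any annotated gene. This was the nearest TSS of a protein-coding gene, but the TSS of the gene model CT033755.1 was closer, at 6361 bp. At the summit 186 ChIP fragments overlapped (95% Poisson interval 160 to 215) over a local background of 5.09, a fold enrichment of 16.1. The sequence leading to the summit is shown because it holds the only match of any searched motif in this peak. Capitals mark TAATTG, letters bound by homeodomain proteins, the class to which the transgene product Dlx5 belongs.
Notch3, chr17:32176817-32176996, plus strand: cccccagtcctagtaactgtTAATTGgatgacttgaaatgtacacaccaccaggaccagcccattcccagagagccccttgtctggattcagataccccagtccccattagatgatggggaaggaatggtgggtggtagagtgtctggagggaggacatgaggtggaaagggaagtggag
TAATTG began 139 bp to the left of the summit. The homeodomain letters, TAATTA or TAATTG on either strand, were in 2 of the 9 peaks, Notch3 and Id2, and in 10.4% of all peaks over their whole length.

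The coactivator genes Maml1 and Maml2 each had a peak within an intron by the annotation used here (GENCODE vM21). Maml1 had its peak at chr11:50286579-50286928, with the summit 5101 bp downstream of the TSS. The Maml1 summit was covered by 118 fragments (97.7 to 141) over a background of 4, a fold enrichment of 12.5. Maml2 had its peak at chr9:13607851-13608075. The Maml2 summit was covered by 42 fragments (30.3 to 56.8) over a background of 2.16, a fold enrichment of 7.25. Maml2 was thus the peak with the fewest fragments of the 9, at place 748 of 779 by this measure. Its background was close to the lowest of all peaks, 2.13. The location of the Maml2 summit depends on the gene model. In the authors' table the gene starts further right, and the peak is 12140 bp upstream of it. GENCODE has a longer transcript that begins to the left of the peak, so that the summit is in an intron and 13711 bp upstream of the nearest TSS of the gene. The TSS of the gene model Gm22643 was closer, at 13291 bp.

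The Maml1 and Maml2 sequences are printed because they differ in the letters of the factor that was precipitated. In Maml1, capitals mark AGATAA, the letters of GATA factors, and CAGGTG, an E-box bound by E proteins. In Maml2, capitals mark CATCAAAG, which read on the minus strand is CTTTGATG, a longer form of the TCF/LEF motif.
Maml1, chr11:50286623-50286723, plus strand: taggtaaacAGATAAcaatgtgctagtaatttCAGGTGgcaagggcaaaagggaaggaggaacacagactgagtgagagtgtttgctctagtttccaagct
Maml2, chr9:13607885-13607985, plus strand: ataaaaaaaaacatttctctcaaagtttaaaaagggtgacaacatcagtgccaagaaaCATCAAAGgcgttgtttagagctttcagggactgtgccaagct
The motif of Maml2 lay 8 to 15 bp to the right of the summit. Maml1 had no TCF/LEF letters in its peak, which says only that these letters are not in this window.

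Fbxw7 had its peak near its promoter in a window rich in GC. FBXW7 is the substrate receptor of an SCF ubiquitin ligase and is often mutated in human T-ALL. The peak, chr3:84814244-84814541, had its summit 885 bp upstream of the TSS, inside an intron of the long overlapping gene model Gm37240 on the other strand. The summit was covered by 263 fragments (232 to 297) over a background of 12.0, a fold enrichment of 10.6. This background was the highest of the 9, and Fbxw7 held the second place of the 9 by fragments and by q-value but the fifth by fold enrichment.

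Cd8a was the gene listed for a peak that lies beyond its 3′ end and beside another gene. Cd8a encodes the alpha chain of CD8, the coreceptor for MHC class I. The peak, chr6:71396022-71396289, had its summit 22601 bp downstream of the Cd8a TSS. It was 33 bp downstream of a TSS of Rmnd5a, which encodes a subunit of the CTLH ubiquitin ligase, in an exon of a noncoding transcript of that gene. The nearest start of a protein-coding transcript of Rmnd5a was 3139 bp away. The summit was covered by 157 fragments (133 to 184) over a background of 9, a fold enrichment of 8.30. The gene of the table owned the nearest protein-coding TSS in 7 of the 9 peaks (all but Cd8a and Trbd1) and in 68.2% of all peaks.

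The Fbxw7 and Cd8a sequences are shown because each summit fell inside a run of the trinucleotide CAG, marked in capitals.
Fbxw7, chr3:84814333-84814433, plus strand: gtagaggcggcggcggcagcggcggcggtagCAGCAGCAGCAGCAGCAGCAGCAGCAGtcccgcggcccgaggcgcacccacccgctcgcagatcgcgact
Cd8a, chr6:71396104-71396204, plus strand: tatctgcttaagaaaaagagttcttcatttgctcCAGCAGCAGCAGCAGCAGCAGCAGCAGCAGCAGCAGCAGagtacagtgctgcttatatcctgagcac
The run had 9 units in Fbxw7, from 19 bp left to 7 bp right of the summit, and 13 units in Cd8a, from 16 bp left to 22 bp right. Runs of 4 or more units of CAG or its reverse complement within 100 bp of the summit were in 2 of the 9 peaks and in 68 of all 779 (8.73%), and the summit fell inside the run in 40 of all (5.13%). In the genome sequence, 42.8% of the bases within 100 bp of the Fbxw7 summit and 34.8% of those around the Cd8a summit are marked as repeats, against a median of 8.46% over all peaks and of 42.0% over the 68 peaks with a run. The part of repeat sequence in the enrichment was not tested. Apart from the run, the windows differed, with a GC content of 70.6% and 23 CpG at Fbxw7 and of 46.8% and 0 CpG at Cd8a.

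Bcl6 had the peak of greatest enrichment of the 9. BCL6 is a zinc-finger repressor known from germinal center B cells and follicular helper T cells. The peak, chr16:23988562-23989012, covered the TSS, with the summit 57 bp downstream of it in the 5′ untranslated region. The summit was covered by 437 fragments (397 to 480) over a background of 7, a fold enrichment of 28.6 and a −log10 q of 247. This interval of fragments overlapped that of no other gene of the 9. The window within 100 bp of the summit was the richest in GC of the 9, with 78.1% and 32 CpG, against medians of 54.7% and 6 CpG over all peaks. The stretch of the peak upstream of the TSS is shown since it holds the palindrome CACGTG (capitals), the E-box bound by MYC and USF proteins.
Bcl6, chr16:23988867-23988952, plus strand: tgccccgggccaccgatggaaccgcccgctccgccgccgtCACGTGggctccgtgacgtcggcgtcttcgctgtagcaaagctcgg
The palindrome began 112 bp to the right of the summit. It was in 2 of the 9 peaks, Bcl6 and Maml2, and in 7.57% of all peaks over their whole length, and it was added to the letters searched after the sequences had been seen.

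Id2 had the most distant peak of the 9. ID2 dimerizes with E proteins and keeps them from DNA, and it is known for its role in innate lymphoid cells and effector T cells. The peak, chr12:25360030-25360205, was 262941 bp upstream of the Id2 TSS, in an intron of the lincRNA gene Gm36723, whose nearest TSS was 21890 bp away. By the distance in the authors' table, only 8 of the 779 peaks, Id2 included, lay this far from their gene. The summit was covered by 62 fragments (47.5 to 79.5) over a background of 4.13, a fold enrichment of 6.50, the lowest of the 9. The assignment of this peak to Id2 rests on distance alone.

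The Id2 sequence is printed because it held 4 kinds of the searched motifs within 100 bp of the summit, more than any other of the 9. Capitals mark GTGGGAA, the letters bound by RBPJ, and GATCAAAGA, which on the minus strand holds TCTTTGAT and CTTTGATC, overlapping longer forms of the TCF/LEF motif.
Id2, chr12:25360031-25360131, plus strand: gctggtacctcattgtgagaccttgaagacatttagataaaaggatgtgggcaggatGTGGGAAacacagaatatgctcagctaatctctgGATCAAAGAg
GTGGGAA lay 7 to 13 bp to the right of the summit and the TCF/LEF letters CTTTGAT 42 to 48 bp to the right. AGATAA began 16 bp to the left, and TAATTG began 81 bp to the right, beyond the printed stretch. The RBPJ letters were within 100 bp of the summit in 1 of the 9 peaks, Id2, and in 4.62% of all peaks.

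Il2rg had its peak at the promoter. Il2rg encodes the common gamma chain, which is shared by the receptors of interleukins such as IL-2 and IL-7. The peak, chrX:101268254-101268543, had its summit 110 bp upstream of the TSS, inside an intron of another annotated gene. The summit was covered by 120 fragments (99.5 to 143) over a background of 7, a fold enrichment of 7.96. Unlike the windows of Bcl6 and Fbxw7, its window was poor in CpG, with 2 CpG and a GC content of 47.8%. The stretch from just before the TSS (left end, since the gene is on the minus strand) to beyond the summit is shown with CTTCCGG in capitals, which on the minus strand is CCGGAAG, the letters of ETS factors.
Il2rg, chrX:101268256-101268475, plus strand: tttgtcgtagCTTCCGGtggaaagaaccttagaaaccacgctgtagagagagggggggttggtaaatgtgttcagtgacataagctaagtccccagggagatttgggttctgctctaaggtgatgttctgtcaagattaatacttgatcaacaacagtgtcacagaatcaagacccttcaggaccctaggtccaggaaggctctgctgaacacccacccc
The ETS letters lay 93 to 99 bp to the left of the summit, towards the TSS. They were within 100 bp of the summit in 1 of the 9 peaks and in 4.88% of all peaks.

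Trbd1 had its peak just before the diversity segment. Trbd1 is joined to a J segment and then to a V segment during assembly of the T-cell receptor beta gene, and the DNA before it is known to hold a germline promoter. The peak, chr6:41532932-41533173, ended before the segment (chr6:41533201-41533212), and its summit was 136 bp upstream of the segment's start. The summit was covered by 95 fragments (76.9 to 116) over a background of 2.13, a fold enrichment of 16.2. This background is the floor of the list, the lowest value, shared by 26 of the 779 peaks (3.34%), and not a count of input fragments at this site. Trbd1 held the second place of the 9 by fold enrichment, which rests on this floor, and the seventh by fragments. The sequence runs from near the summit to the end of the segment, with the segment GGGACAGGGGGC and each TTATCT, which is AGATAA on the minus strand, in capitals.
Trbd1, chr6:41533045-41533212, plus strand: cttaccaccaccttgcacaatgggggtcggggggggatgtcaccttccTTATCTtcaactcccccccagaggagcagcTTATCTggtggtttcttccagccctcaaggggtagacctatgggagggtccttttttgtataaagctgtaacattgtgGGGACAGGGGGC
The GATA letters AGATAA were present at 2 positions, beginning 28 and 58 bp to the right of the summit, between it and the segment. The nearest TSS of a protein-coding gene was that of Prss2, a trypsinogen gene embedded in the locus, at 11278 bp. The same summit was the nearest to Trbc1 (5.15 kb), Trbd2 (9.10 kb) and Trbc2 (13.7 kb), so these genes and Trbd1 share 1 peak.

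The order of the 9 peaks depended on the measure. By fragments at the summit, it was Bcl6, Fbxw7, Notch3, Cd8a, Il2rg, Maml1, Trbd1, Id2 and Maml2. The intervals of Bcl6, Fbxw7 and Notch3 did not overlap each other, whereas from Notch3 down the interval of each peak overlapped that of the next. Overlap of intervals is not a test of the difference, and no pair was tested. Bcl6 and Notch3 held the same place, the first and the third, by fold enrichment, by fragments and by q-value.

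**Figure D2:**
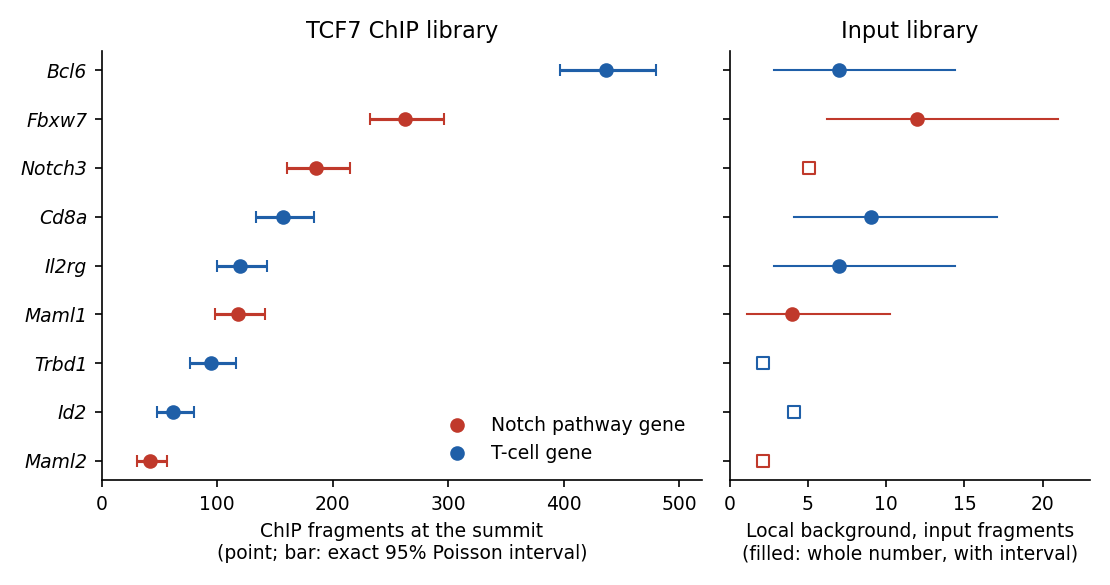
ChIP fragments overlapping the summit of each of the 9 peaks, with exact 95% Poisson intervals (left), and the local background (right), whose axis takes it as input fragments. Filled circles are whole numbers with their interval if taken as counts, and open squares are other values, Trbd1 being at the floor of the list. Bcl6 at 437 and Fbxw7 at 263 stand apart from the other genes on the left, while the intervals of the background overlap on the right.

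The local background was a whole number, within 0.01, in 5 of the 9 peaks and in 53.7% of all peaks, as a count of input fragments would be. If the background is taken as such a count, its 95% Poisson interval alone moves the fold enrichment of Bcl6 from 14.9 to 60.1. The same interval moves Fbxw7 from 6.30 to 19.2 and Maml1 from 5.57 to 30.0. The upper end for Maml1 needs a background of 1.09, below the floor of the list (2.13), so that end is out of reach. For Cd8a the range was 4.59 to 16.2, and for Il2rg it was 4.13 to 16.7. These 5 ranges all overlapped, and the differences between the peaks were not tested.

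Some of the 9 summits lay near a promoter and others far from one. The summit was within 1000 bp of a TSS of a protein-coding gene in 4 of the 9 (Bcl6, Il2rg, Fbxw7 and, through Rmnd5a, Cd8a) and in 61.0% of all peaks. It was over 10 kb from any such TSS in 4 of the 9 (Notch3, Maml2, Id2 and Trbd1) and in 24.8% of all peaks. Trbd1 is in this group because a diversity segment has no protein-coding TSS, though its summit was 136 bp from the segment's start. With 9 peaks chosen by gene name, these are counts and not tests. Within 100 bp of the summit, the median GC content was 47.8% with 2 CpG in the 9 peaks and 54.7% with 6 CpG in all peaks.

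**Figure D3:**
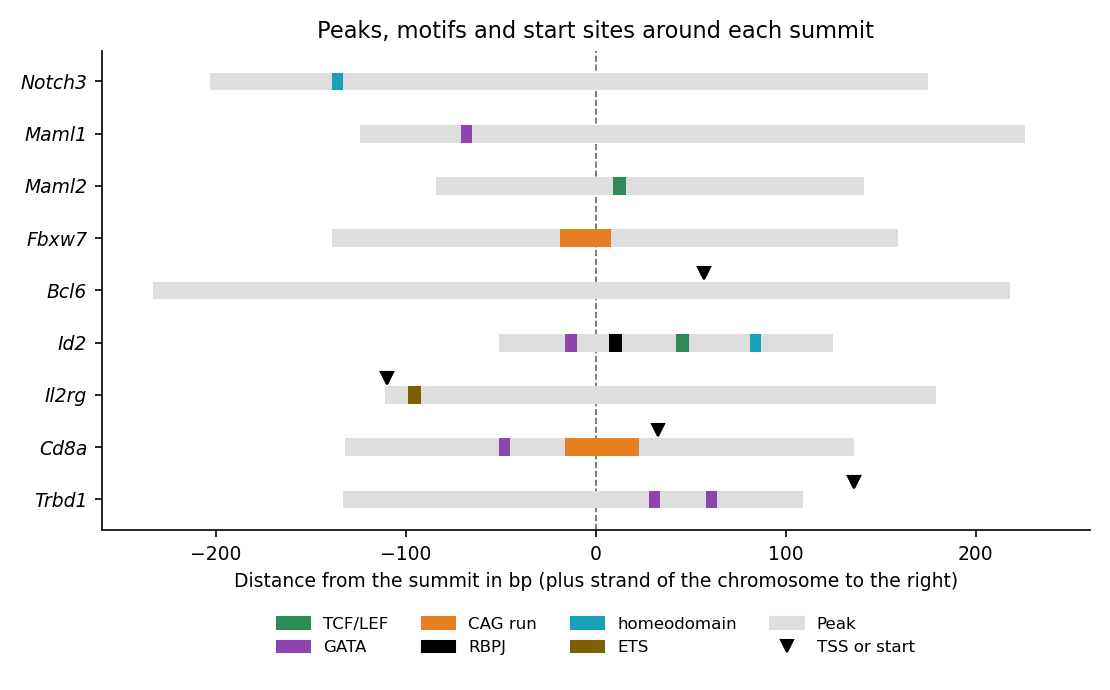
Each of the 9 peaks (gray bars) drawn to scale around its summit (dashed line, distance in bp on the x axis), with matches of 5 motifs and CAG runs in color (E-boxes, CACGTG and GGGCGGG are not drawn) and triangles at annotated start sites of the gene, or of Rmnd5a for Cd8a, within 260 bp. The CAG runs of Fbxw7 and Cd8a span the summit, the TCF/LEF letters are in Maml2 and Id2, and the GATA letters are in Maml1, Id2, Cd8a and Trbd1.

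The letters of TCF7 itself were in a minority of the 9 peaks. TCF/LEF letters were searched as CTTTGAA, as CTTTGAT, as CTTTGTA and as CTTTGTT on both strands within 100 bp of the summit. They were in 2 of the 9 peaks, Maml2 and Id2, and in 15.7% of all peaks. These were the 2 peaks with the fewest fragments and the lowest fold enrichment of the 9. Over all peaks, the median fold enrichment was 6.30 in the 122 with these letters and 9.76 in the 657 without. The median GC content of these groups was 47.5% and 56.2%. In the 304 peaks over 1000 bp from a protein-coding TSS, with or without the letters, the median fold enrichment was 6.77. The part of GC content and of distance to a TSS in the difference was not tested. The longer forms TCTTTGAA, TCTTTGAT, CTTTGATC and CTTTGATG, which contain the shorter ones, were in the same 2 of the 9 peaks and in 5.26% of all.

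AGATAA, the letters of GATA factors such as GATA3 of T cells, was found in more of the 9 peaks than any other motif searched. It was within 100 bp of the summit in 4 of the 9, Maml1, Id2, Cd8a and Trbd1, and in 7.06% of all peaks. None of these 4 windows was among those rich in GC. The median GC content was 47.8% in the 9 windows and 54.7% over all peaks. AGATAA is singled out because it had the most matches after all motifs were searched, and neither its count nor the part of GC content was tested. The E-boxes CAGGTG or CAGCTG were in 2 of the 9 (Maml1 and Cd8a) and in 25.9% of all. Within the same 100 bp, the RUNX letters TGTGGTT or TGCGGTT were in 0 of the 9 and in 6.68% of all. GGGCGGG, bound by SP1 and KLF factors, was in this window in 0 of the 9 and in 13.9% of all. Over the whole peak, GGGCGGG was in 1 of the 9, Fbxw7, and in 25.2% of all. Over the whole peak, the E-boxes were in 3 of the 9 and in 37.7% of all.

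Other genes of the Notch pathway were then looked up. In a list of 62 Notch pathway genes, 4 were the nearest gene of a peak, the members Notch3, Maml1, Maml2 and Fbxw7 (6.45%), against 2.66% of 21728 protein-coding genes. Since these 4 were chosen for their peaks, the share is not independent evidence about the pathway. A start site no further than 1000 bp from a summit was found for 1 of the 62, Fbxw7, and for 2.54% of protein-coding genes. No peak was assigned to any of the 6 ligand genes, the 15 genes of receptor processing or the 8 target genes, counts that are near the share of all protein-coding genes. The nearest summit was 237 kb from the receptor gene Notch1, 716 kb from Notch2 and 40.6 kb from Notch4. It was 456 kb from Rbpj, which encodes the DNA-binding partner, and 468 kb from Maml3. Of the targets, Ptcra, the pre-T-cell receptor alpha chain, was closest, at 8.97 kb from a summit of 20.8-fold enrichment assigned to 2310039H08Rik. The Notch targets Hes1 and Myc were 521 kb and 1353 kb away, and Dtx1, a ubiquitin ligase of the pathway, was 69.3 kb away.

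In a list of 76 T-cell genes, 9 were the nearest gene of a peak (11.8%), against 2.66% of protein-coding genes. Of these, Bcl6, Id2, Il2rg, Cd8a and Trbd1 were chosen for their peaks, so this share is not independent evidence either. The other 4 were Lef1 and Tcf7, which encode the TCF/LEF factors of T cells, the repressor gene Prdm1 and Rasgrp1, an activator of RAS below the T-cell receptor. Their fold enrichments were 8.45 at Lef1, 5.66 at Rasgrp1, 3.56 at Tcf7 and 2.81 at Prdm1. The Lef1 summit was 4.45 kb and the Tcf7 summit 31.4 kb from the TSS, while that of Rasgrp1 was at 38 bp. The table's nearest gene missed a pair of T-cell genes with a summit in them. Tcf12, which encodes the E protein HEB, had a summit 143 bp from its TSS with 17.7-fold enrichment that was assigned to Cgnl1. Cd247, the CD3 zeta chain, had a summit in an intron with 7.55-fold enrichment that was assigned to Gm23402.

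The genes that define T cells were looked up for a peak. Of the 10 markers Cd3d, Cd3e, Cd3g, Cd247, Cd4, Cd8a, Cd8b1, Lck, Bcl11b and Tcf7, Cd8a, chosen for its peak, and Tcf7 were the nearest gene of a peak, against the 2.66% of protein-coding genes. The Cd8a summit lay 33 bp from a TSS of Rmnd5a, and the Tcf7 peak had a fold enrichment of 3.56. Cd247 had a summit in an intron that was assigned to Gm23402. The nearest summit was 12.9 kb from Lck, 52.0 kb from Cd8b1 and 121 kb from Cd3e. It was 272 kb from Bcl11b and 989 kb from Cd4. The nearest summit to Gata3 was 286 kb away, that to Rag1 330 kb, that to Id3 691 kb and that to Il7r 6259 kb. The median distance was 339 kb in the T-cell list and 590 kb in the Notch list, against 787 kb over protein-coding genes. A summit lay within 100 kb of 26.3% of the T-cell list, 21.0% of the Notch list and 14.0% of protein-coding genes. Both lists hold the genes chosen for their peaks, and Trbd1, Trbd2, Trbc1 and Trbc2 share 1 summit. These distances and shares are therefore not independent evidence about either list.

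**Figure D4:**
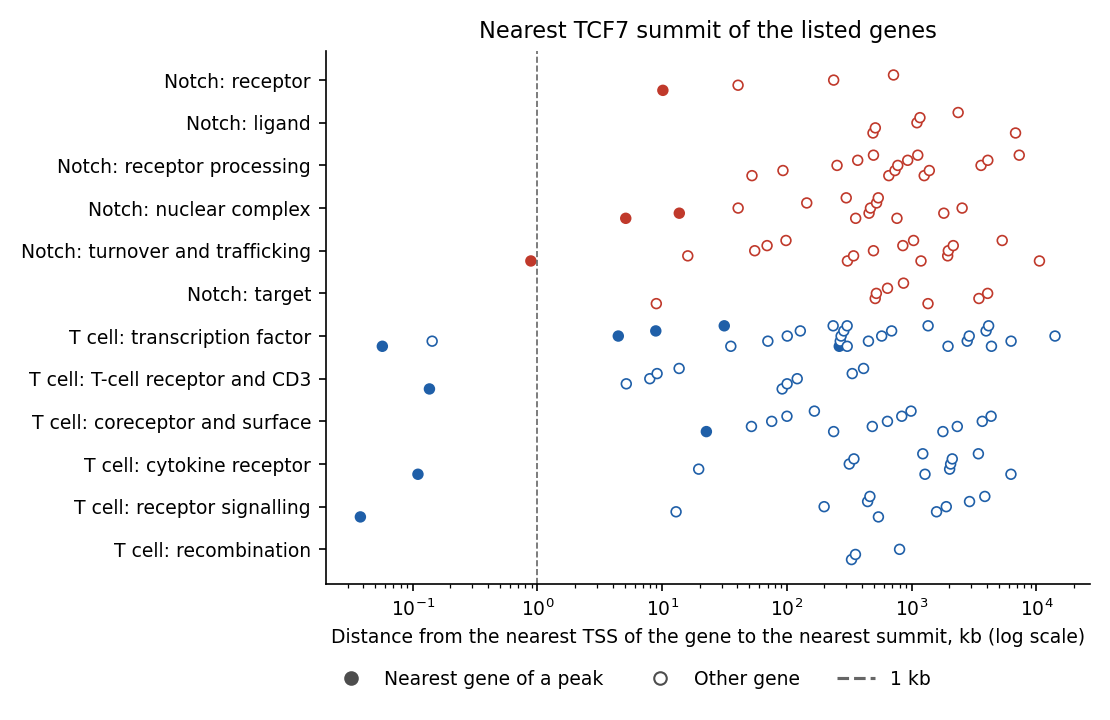
Distance from the TSS of each of the 62 Notch pathway genes (red) and 76 T-cell genes (blue) to the nearest summit (x axis, kb, log scale), by role (y axis). Filled points are the nearest genes of a peak, and 6 genes lie left of the dashed line at 1 kb, Fbxw7 in the Notch list and Rasgrp1, Bcl6, Il2rg, Trbd1 and Tcf12 in the T-cell list.

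The promoters of the genes were also searched, since 4 of the 9 summits lay over 10 kb from any TSS of a protein-coding gene. RefSeq promoter sequences, from 250 bases before to 50 after each start, matched 8 of the 9 genes, all but Trbd1. A gene had up to 3 promoters, so matches per gene are not on the scale of the share per promoter. TCF/LEF letters were in a promoter of Maml1 and of Maml2 and in 16.9% of 32851 promoters. GGGCGGG was in a promoter of Fbxw7, Id2, Maml1 and Notch3 and in 25.6% of all promoters. The E-boxes CAGGTG or CAGCTG were in that of Cd8a and Id2 (32.9% of all), and the homeodomain letters in that of Fbxw7 and Maml2 (12.4%). The CACGTG palindrome was in a promoter of Bcl6 and in 7.15% of all promoters, and the ETS letters were in that of Il2rg and in 8.86%. The sites already described in the Bcl6 and Il2rg peaks lie less than 250 bases upstream of the GENCODE start of each gene. These matches in Bcl6 and Il2rg are therefore not independent of the search in the peaks. CACGTG had also been added to the letters searched after the sequences had been seen. None of the 8 had the RBPJ, RUNX or GATA letters in its promoter, which were in 6.38%, 6.75% and 11.2% of all.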

How the data were processed

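The authors used Bowtie2 and the mm10 genome for alignment and MACS2 in Chipster for peak calling, with the input DNA as control. Software releases and parameters were not stated. The deposited peak list gives pileup (a signal of overlapping fragments at the summit), fold enrichment (a ratio to the local background) and −log10 q-values. The deposited nearest-gene table, whose column headings are out of step with its contents, gave each peak's gene ID, location and distance; 14 IDs had no match in GENCODE vM21.

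Pileups were whole multiples of 0.522, within 0.01, so they were divided by it to give ChIP fragments, with exact 95% Poisson intervals that cover counting error only. Local background was (pileup + 1)/fold − 1. Library totals were not used here. Distances are from summits to GENCODE vM21 start sites (for Trbd1, the segment's start). Protein-coding genes were counted on chromosomes with peaks. Motif letters were searched on both strands of the mm10 genome from RefSeq, from which the printed sequences come. The search was within 100 bp of summits and, where so stated, over the whole peak. Scripts (Python 3.11.15, pysam 0.24.0, scipy 1.17.1) were tested on simulated data. No test of significance was made. The genes named were the 9 genes, list genes with a peak, a summit in the gene or a TSS within 1000 bp, owners of the nearest TSS, and a preset group of list genes without a peak. Notch4 was named outside that group. The genes and lists were chosen with earlier results of these data known.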

Additional observations from a re-analysis of the deposited data

How the results depend on the processing

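Of 26 alternative values, 18 stayed within 1.5 times the reported count or, for the median fold enrichment, within its counting error, and 8 moved. The gene's own TSS was the nearest in 8 of the 9 peaks among protein-coding genes and the diversity segment, and in 5 when any gene type counted. With a fold enrichment of at least 10, 5 of the 9 genes kept a peak, against 45.1% of all peaks. At any fold enrichment, 4 of the 9 (Fbxw7, Bcl6, Il2rg and Trbd1) had a summit within 1000 bp of their own start. Of the Notch list, 1 gene rather than 4 had a TSS within 1000 bp of a summit. Of the T-cell list, 5 genes rather than 9 had such a TSS, against 2.54% of protein-coding genes. In the T-cell list, 2 genes were the nearest gene of a peak of at least 10-fold enrichment, against 1.34% of protein-coding genes. Both of these, Bcl6 and Trbd1, had been chosen for their peaks. Against the order by fold enrichment, 5 of the 9 peaks held the same place by q-value and 2 by fragments. The alternatives with protein-coding transcripts only were chosen after seeing the data. No paired analysis was possible because there was 1 ChIP and 1 input library and no test. With 1 library, counting error is the only error that can be given, and peaks of few fragments, such as that of Maml2, are the least certain.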
